A study of Mus musculus with 3 samples.

Results

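The genes described here are the ligands and receptors of the tumour necrosis factor (TNF) superfamily whose symbols start with Tnfsf or Tnfrsf followed by a digit, in cultured mouse plasmacytoid dendritic cells. The symbol rule found 29 of 19505 measured genes, 9 ligands and 20 receptors, each read by a single probe set. Members of the superfamily under other symbols, such as Tnf and Cd40, were kept as separate lists.

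The cells came from wild-type male BALB/c mice aged 4 to 5 weeks. Bone marrow was cultured for 6 to 9 days in 100 ng/mL Flt3 ligand, the growth factor that drives dendritic cell development, matured with CpG oligodeoxynucleotides, which act through TLR9, and sorted. A group was a single array: control cells, cells given astragaloside IV (a saponin from Astragalus root) or cells given oxymatrine (an alkaloid from Sophora root). Each compound was present for 12 h and was followed by 1 h of CCL21, a chemokine that attracts mature dendritic cells; the study asked how both compounds restrain migration. Whether the control cells also met CCL21 is not stated, nor are doses or the number of mice, so the compounds and the CCL21 step cannot be told apart in a difference from control.

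Ligands of this superfamily are mostly membrane proteins that act as trimers, and many are also shed. They bind receptors with cysteine-rich repeats outside the cell. Some receptors carry a death domain inside the cell and can start apoptosis; others recruit TRAF adaptors and activate NF-kB. Dendritic cells use several ligands to costimulate T cells, and receive survival and maturation signals through receptors of the same superfamily.

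No replicate exists in any group, so no test, error or p-value could be given, and differences are described by size on the deposited log2 scale, whose upper end of 19.7 exceeds that of plain RMA. A gene was counted as above background when its mean over the 3 arrays reached a log2 level of 5.28, the level that 95% of the 1410 genes for smell and pheromone receptors, normally silent in blood cells, stayed below. By that rule 22 of the 29 members (75.9%) were above background, against 54.7% of all named genes. Probe sets differ in how brightly they bind, so differences are taken between arrays for the same gene, and no gene is called more abundant than another. The arrays were close, with median levels over all probe sets of 5.68 to 5.75.

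The identity of the cells was checked on marker lists. Of 14 plasmacytoid dendritic cell markers measured, 13 were above background and Pacsin1, at a mean of 4.97, was not. Mean levels of the 13 ran from 6.69 for Ly6d to 14.95 for Irf7. The lineage transcription factor Tcf4 was at 14.37 in each array, and the surface protein gene Bst2 at 12.08 to 12.09. The markers with the largest differences were Ccr9, Ly6d and Spib. Relative to control cells, the Ccr9 difference was -0.27 after astragaloside IV and -0.32 after oxymatrine. That of Ly6d was -0.30 after either compound, and that of Spib 0 and -0.48. In all, 0 of the 13 were higher, 7 lower and 6 equal with astragaloside IV. With oxymatrine 2 were higher, 8 lower and 3 equal. Over all 10671 genes above background, more were also lower than higher. The counts were 3352 higher and 4358 lower with astragaloside IV, and 3166 and 4905 with oxymatrine. On quantile-normalised values the marker splits became 3 against 10 and 6 against 7. After centring each array on its median they were 6 against 7 and 1 against 12. All 7 measured monocyte and macrophage markers were above background too, with mean levels from 8.97 for C1qa to 14.08 for Adgre1. So were 7 of 10 conventional dendritic cell markers. How far other cell types were present was not tested. B cell markers passed in 3 of 7 cases, with Cd79a and Pax5 below background, T and NK cell markers in 5 of 11, with Cd3d, Cd3e and Cd3g below, and neutrophil markers in 2 of 8. Above background, Il2rb of the T and NK cell list was at 7.33 in control cells, 6.32 after astragaloside IV and 6.48 after oxymatrine, differences of -1.01 and -0.84. Itgae of the conventional dendritic cell list lay below control in both treated arrays as well, by differences of -0.73 and -0.49. Both were picked out after their values were seen, and their part in the members' values was not tested. In bulk RNA, fewer cells of a type and less RNA per cell cannot be told apart.

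Upstream sequence was available from RefSeq (build GRCm38.p6) for 23 of the 29 members, in windows of the 250 bases before an annotated start. The 2 motifs searched, on both strands, were the NF-kB consensus and the interferon-stimulated response element GAAANNGAAA, since CpG maturation is known to act through NF-kB and interferon. The NF-kB consensus was found for 3 members, Tnfrsf8, Tnfrsf9 and Tnfrsf25. That was 3 of the 27 member windows, beside 2382 (7.25%) of all 32851 windows. The response element was found for 4, Tnfrsf1b, Tnfrsf14, Tnfsf13b and Tnfrsf17. That was 4 of the 27 member windows, beside 978 (2.98%) of all windows. Among the members with a match, Tnfsf13b and Tnfrsf17 were below background. Tnfrsf8 and Tnfrsf25 were dim, with means of 5.81 and 5.85. Sequences are shown for the 3 receptors with a match whose values lay far above background in every array, 5′ to 3′ along the gene, with the matches in capitals; overlapping matches on both strands form the run in Tnfrsf9, in 1 of its annotated windows.
Tnfrsf9, GRCm38.p6, chr4:150927749-150927998, plus strand: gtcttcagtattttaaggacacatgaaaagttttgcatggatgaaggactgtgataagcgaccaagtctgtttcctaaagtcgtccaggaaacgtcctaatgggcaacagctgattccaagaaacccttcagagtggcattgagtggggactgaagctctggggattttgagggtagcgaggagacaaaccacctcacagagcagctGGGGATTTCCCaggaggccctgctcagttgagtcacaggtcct
Tnfrsf1b, GRCm38.p6, chr4:145246871-145247120, minus strand: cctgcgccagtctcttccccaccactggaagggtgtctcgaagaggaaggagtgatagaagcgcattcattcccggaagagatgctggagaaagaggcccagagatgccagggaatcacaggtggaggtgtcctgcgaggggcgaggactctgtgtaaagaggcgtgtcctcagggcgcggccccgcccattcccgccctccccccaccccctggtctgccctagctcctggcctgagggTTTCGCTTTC
Tnfrsf14, GRCm38.p6, chr4:154928078-154928327, minus strand: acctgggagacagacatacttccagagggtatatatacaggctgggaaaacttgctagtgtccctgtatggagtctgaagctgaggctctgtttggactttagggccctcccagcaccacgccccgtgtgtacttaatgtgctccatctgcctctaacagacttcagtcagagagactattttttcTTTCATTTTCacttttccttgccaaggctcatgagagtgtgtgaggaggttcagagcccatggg
The match ended 33 bases before the start in Tnfrsf9, 1 base before it in Tnfrsf1b and 55 bases before it in Tnfrsf14. A match describes letters only, and the arrays did not measure binding.

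Of the 9 ligands, 5 were above background: Tnfsf4, Tnfsf9, Tnfsf10, Tnfsf14 and Tnfsf15. That is close to the share over all named genes, 54.7%. Tnfsf4, which encodes the OX40 ligand that costimulates T cells, was at 11.24 in control cells, 11.24 after astragaloside IV and 10.93 after oxymatrine. The oxymatrine array thus lay lowest, by 0.30 on the log2 scale or 1.24-fold, and the other arrays were equal. Among the 534 genes of similar level, 9.55% lay at least as far from control in the oxymatrine array. Tnfsf9, the gene for the ligand of CD137, was at 6.72 in all 3 arrays. Tnfsf10, which encodes TRAIL, the ligand that can trigger apoptosis, was at 8.24 in control cells, 8.37 after astragaloside IV and 8.32 after oxymatrine. Both treated arrays lay slightly above control, by 0.13 and 0.08.

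Tnfsf14 encodes LIGHT, a ligand of HVEM and of the lymphotoxin beta receptor. It was at 6.04 in control cells, 6.09 after astragaloside IV and 6.28 after oxymatrine. The oxymatrine value was the highest, by 0.24 over control, while the difference of 0.05 with astragaloside IV became -0.02 after quantile normalisation. Tnfsf15, the gene for TL1A, a costimulator made by myeloid cells, was at 10.10, 10.08 and 10.03 in the order control, astragaloside IV, oxymatrine. Its 3 values spanned 0.07.

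The other 4 ligand genes were below background, with means from 2.65 for Tnfsf18 to 4.85 for Tnfsf13b. They were Tnfsf8, the CD30 ligand, Tnfsf11, the RANK ligand that drives osteoclast formation, Tnfsf13b, which encodes the B cell survival factor BAFF, and Tnfsf18, the GITR ligand. Tnfsf13b was at 5.01 in control cells, 4.78 after astragaloside IV and 4.77 after oxymatrine, so it lay below the background level in every array.

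**Figure D1:**
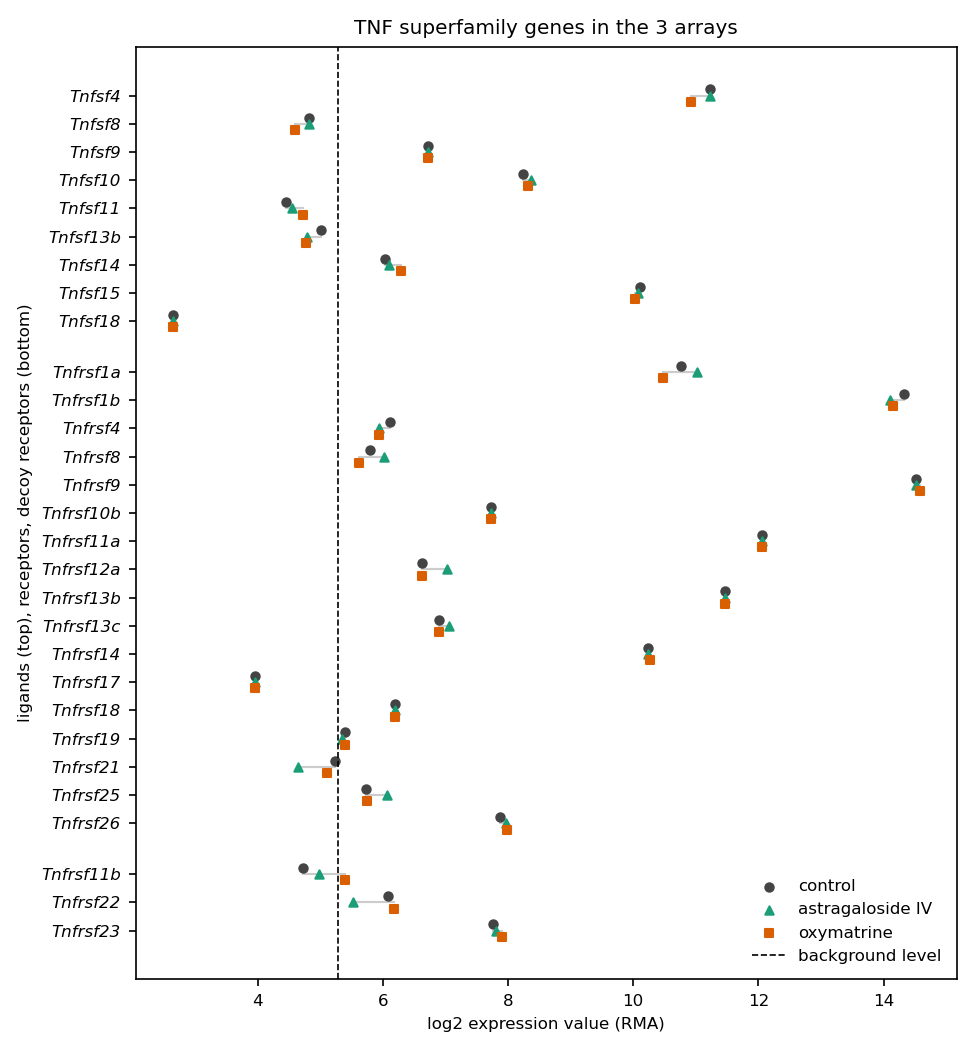
Log2 expression values (x axis) of the 29 members (y axis, ligands at the top, then receptors, then decoy receptors) in the control, astragaloside IV and oxymatrine arrays, 1 point per array, offset vertically for legibility. The dashed line marks the background level of 5.28; for most members the 3 points of a row lie close together, while Tnfrsf11b spans 0.67, Tnfrsf22 0.66, Tnfrsf21 0.60 and Tnfrsf1a 0.55.

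Among receptors, 17 of 20 were above background, against 54.7% of all named genes. The TNF receptors came first. Tnfrsf1a encodes TNFR1, the death domain receptor for TNF, and was at 10.76 in control cells, 11.02 after astragaloside IV and 10.48 after oxymatrine. The control lay between the treated arrays, 0.26 below one and 0.28 above the other. Between the treated arrays the difference was 0.55, or 1.46-fold, and 0.75% of the 533 genes of similar level lay at least as far apart. That difference was 0.58 after centring each array on its named-gene median and 0.51 after quantile normalisation. The share of 0.75% was the smallest over the 22 members and 3 pairs of arrays. Some small shares would arise among so many in any case. Tnfrsf1b, the gene for TNFR2, which lacks a death domain and signals through TRAF2, was at 14.32 in control cells, 14.10 after astragaloside IV and 14.15 after oxymatrine. Both treated values were below control, by 0.22 and 0.17, and 7.69% and 18.4% of the 533 genes of similar level lay at least as far from control.

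The receptors best known from T cell costimulation were measured next. Tnfrsf9, which encodes CD137, was at 14.52 in control cells, 14.52 after astragaloside IV and 14.58 after oxymatrine, a span of 0.06. Tnfrsf4, the OX40 gene, was at 6.11 in control and at 5.95 in both treated arrays. Tnfrsf18, the GITR gene, was at 6.19 in each array. Tnfrsf8, which encodes CD30, was at 5.79 in control cells, 6.01 after astragaloside IV and 5.62 after oxymatrine. Its control value lay between the treated values, as for Tnfrsf1a, and the treated arrays were 0.39 apart; 13.3% of genes of similar level lay at least that far apart. Tnfrsf14, the gene for HVEM, which binds LIGHT and also the inhibitory receptor BTLA, was at 10.23 in control and with astragaloside IV and at 10.27 with oxymatrine. Tnfrsf25 encodes DR3, the death domain receptor for TL1A, and was at 5.73 in control cells, 6.06 after astragaloside IV and 5.75 after oxymatrine. The astragaloside IV array stood above the others, by 0.33 over control, while the oxymatrine difference of 0.03 changed sign under both other scalings.

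TRAIL can bind a death receptor and, in the mouse, decoy receptors without a death domain. Tnfrsf10b, the gene for the death receptor DR5, was at 7.73 in each array. The decoy receptor gene Tnfrsf22 was at 6.08 in control cells, 5.52 after astragaloside IV and 6.19 after oxymatrine. Its value was lowest with astragaloside IV, by a difference of -0.55 from control and -0.66 from oxymatrine. That lowest value was close to background, which was 5.28 over the arrays and 5.38 in the astragaloside IV array alone. Of the 533 genes of similar level, 5.07% lay as far from control with astragaloside IV, and 3.19% lay as far apart between the treated arrays. Tnfrsf23, a related decoy receptor gene, was at 7.75 in control cells, 7.80 after astragaloside IV and 7.90 after oxymatrine. The orphan receptor gene Tnfrsf26, which lies next to these decoys in the genome, was at 7.87, 7.97 and 7.98 in the same order. Neither of these 2 neighbours was lowest with astragaloside IV. Whether the probes of such related genes share signal was not tested.

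In the BAFF group, Tnfrsf13b, which encodes TACI, was at 11.47 in all 3 arrays, and Tnfrsf13c, the BAFF receptor gene, was at 6.90 in control cells, 7.05 after astragaloside IV and 6.90 after oxymatrine. Tnfrsf17, the BCMA gene of plasma cells, was below background at 3.96 in each array. Both detected genes are also known from B cells; the summed level of the 7 B cell markers was 10.44 in control cells, 10.28 after astragaloside IV and 10.47 after oxymatrine on the log2 scale, a sum made up mostly by Cd79b, at 10.13, 9.91 and 10.13. Their part in these values was not tested. Tnfrsf11a, the gene for RANK, which supports dendritic cell survival, was at 12.06 in each array. Its soluble decoy Tnfrsf11b (osteoprotegerin) was at 4.72 in control cells, 4.98 after astragaloside IV and 5.39 after oxymatrine, with a mean of 5.03 just under the background level. Only the oxymatrine value lay above 5.28, so the difference of 0.67 from control starts from a value that is not above background.

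The remaining receptors have roles outside these groups. Tnfrsf12a, which encodes Fn14, the receptor for TWEAK, was at 6.63 in control and with oxymatrine and at 7.02 with astragaloside IV. The astragaloside IV array was higher by 0.39, or 1.31-fold, and 11.8% of the genes of similar level lay at least as far from control. Tnfrsf19, the TROY gene of the nervous system and skin, was just inside the background level with a mean of 5.38 and values of 5.39, 5.35 and 5.39. Tnfrsf21 encodes the death domain receptor DR6 and was just outside it, at 5.24 in control cells, 4.64 after astragaloside IV and 5.11 after oxymatrine.

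Set in ligand and receptor groups, the members form 9 groups in which both sides were measured under these symbols. In 5 of them, those of CD137, OX40, HVEM, DR3 and TRAIL, the ligand and at least 1 receptor were above background. In the other 4, those of GITR, CD30, RANK and BAFF, a receptor was above background and the ligand was not. Tnfsf12 and Tnfsf13 had no value under these symbols, and the ligand side of the BAFF group was Tnfsf13b alone. In 0 groups was the ligand alone above background. The DR3 and CD30 groups rest on dim receptors. Tnfrsf25 and Tnfrsf8 had means of 5.85 and 5.81, and 98.7% and 98.3% of the smell and pheromone receptor genes were at or below them. With the 99th percentile as background, neither receptor would pass. The DR3 ligand would then stand alone, and the CD30 group would have neither side.

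Against control, 0 of the 22 members above background were 2-fold apart in the astragaloside IV array, where 0.197% of all 10671 genes above background were, and 0 of 22 in the oxymatrine array, where 0.281% were. Between the treated arrays 0 of 22 were 2-fold apart, against 0.159% of all. At 1.5-fold the counts were 0 of 22 with astragaloside IV, where 2.13% of all genes passed, 0 of 22 with oxymatrine, where 3.31% passed, and 1 of 22 between the treated arrays (Tnfrsf22), where 2.58% passed. After quantile normalisation Tnfrsf22 also passed 1.5-fold against control with astragaloside IV, at -0.61. With shares this small over all genes, 22 members would hold few such genes in any case.

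With astragaloside IV, 9 of the 22 members were higher than control, 5 lower and 8 equal, with a median difference of 0, the same as over all genes above background, of which 3352 were higher, 4358 lower and 2961 equal. With oxymatrine 8 were higher, 6 lower and 8 equal, again with a median of 0 in the members and in all genes, of which 3166 were higher, 4905 lower and 2600 equal. Between the treated arrays 8 were higher with astragaloside IV, 8 lower and 6 equal, and of all genes 4344 were higher, 3473 lower and 2854 equal. The splits depend on the scaling, because it shifts equal values off 0. After centring on the named-gene medians, 17 members were higher and 5 lower with astragaloside IV (6400 and 4271 of all genes). With oxymatrine they were 7 and 15 (2704 and 7965), and between the treated arrays 15 and 7 (7856 and 2815). After quantile normalisation they were 13 and 9 with astragaloside IV (4403 and 6188 of all genes), 9 and 13 with oxymatrine (5013 and 5624), and 10 and 12 between the treated arrays (4284 and 6354). Both comparisons with control share the control array. Exactly equal values are frequent in these data: 5 of the 22 members, Tnfrsf10b, Tnfrsf11a, Tnfrsf13b, Tnfrsf18 and Tnfsf9, had the same value in all 3 arrays, or 22.7%, against 13.6% of all genes above background.

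**Figure D2:**
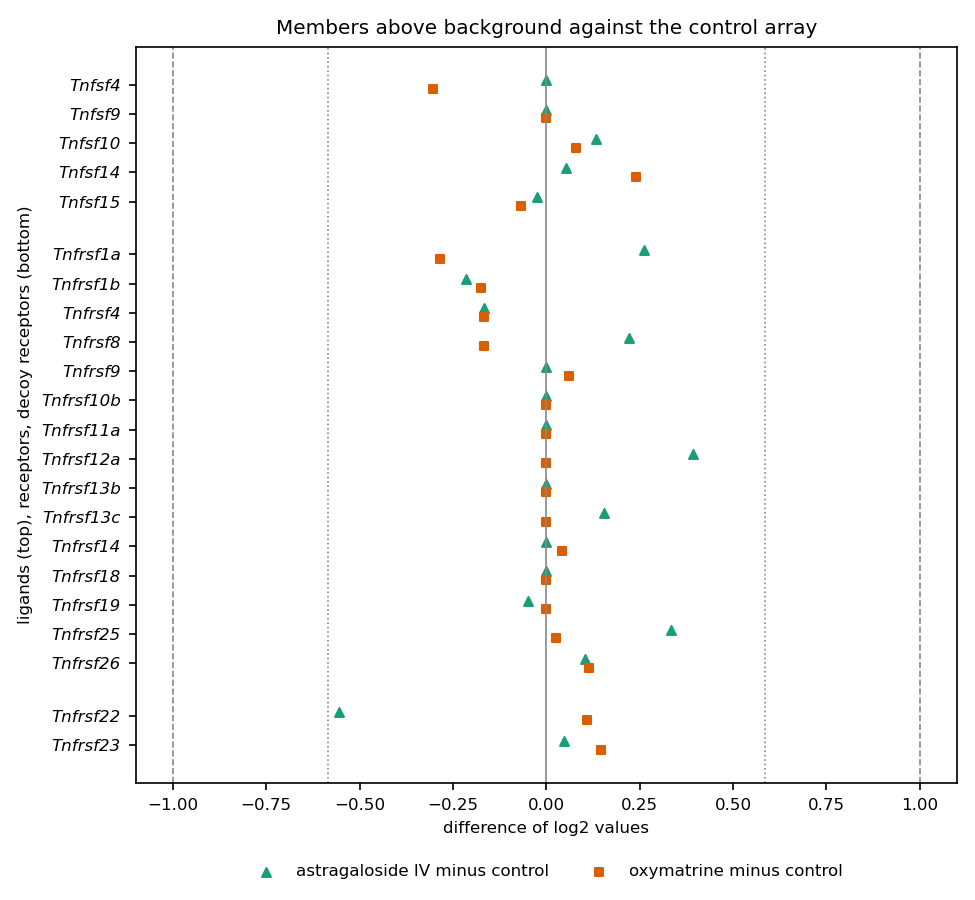
Difference of log2 values from the control array (x axis) for the 22 members above background (y axis, ordered as ligands, receptors and decoy receptors), with triangles for astragaloside IV and squares for oxymatrine, 1 array each. Dotted lines mark 1.5-fold and dashed lines 2-fold; every point lies inside the dotted lines, with Tnfrsf22 at -0.55 and Tnfrsf12a at 0.39 with astragaloside IV as the points farthest out.

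**Figure D3:**
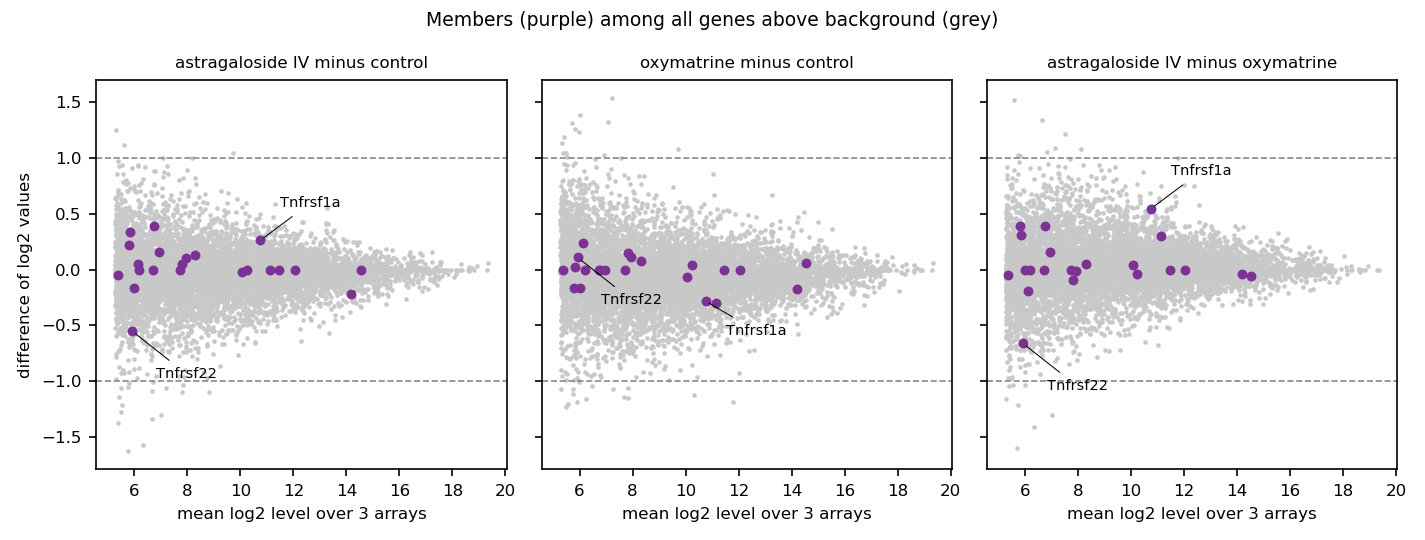
Difference of log2 values (y axis) against the mean log2 level over the 3 arrays (x axis) for all 10671 genes above background (grey) and the 22 members (purple), with a panel for each pair of arrays and dashed lines at 2-fold. The spread of the grey points narrows with level; in the panel of astragaloside IV minus oxymatrine, Tnfrsf1a at 0.55 lies at the edge of the genes of its level, and Tnfrsf22 at -0.66 lies among dim genes.

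Superfamily members under other symbols were partly detected. Of 7 such ligands 3 were above background. Tnf itself was at 13.63 in control cells, 13.28 after astragaloside IV and 13.38 after oxymatrine, Lta, the lymphotoxin alpha gene, at 6.95, 6.52 and 6.72, and Ltb, the lymphotoxin beta gene, at 10.07, 10.05 and 10.05 in the same order. The control array was the highest for each of these 3 genes, by 0.35 and 0.25 for Tnf; for Ltb the oxymatrine difference of -0.02 became 0.02 after quantile normalisation. Cd40lg, Fasl, Cd70 and Eda were below background. Of 7 other receptors measured, 5 were above background, among them, in that order, Cd40, a maturation marker of dendritic cells, at 13.13, 13.10 and 12.88, Ltbr at 11.63 in each array, and Relt at 10.57, 10.54 and 10.57. None of these 8 genes was 1.5-fold apart in any pair of arrays.

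Signalling genes below the receptors were all above background where measured, beside 54.7% of all named genes. Of these, 1 gene, Tnip1, was past 1.5-fold. Of 18 adaptor and ubiquitin ligase genes measured, all above background, 6 were higher, 7 lower and 5 equal with astragaloside IV and 4 higher, 10 lower and 4 equal with oxymatrine, with medians of 0 and -0.03 and 0 genes at 1.5-fold. On quantile-normalised values the splits became 7 against 11 with astragaloside IV and 9 against 9 with oxymatrine. After centring they were 11 against 7 and 3 against 15, so the 2 scalings differed. On deposited values, all genes above background also leaned lower. There 3352 were higher and 4358 lower with astragaloside IV, and 3166 and 4905 with oxymatrine. Traf1, an adaptor that NF-kB induces, was at 16.47 in control and with astragaloside IV and at 16.41 with oxymatrine. Birc3, the gene for the ubiquitin ligase cIAP2, was at 16.59, 16.63 and 16.63 in the order control, astragaloside IV, oxymatrine, and Tank, which binds TRAF proteins, at 15.98, 15.92 and 15.92. Of 16 NF-kB pathway genes, 6 were higher and 5 lower with astragaloside IV and 6 higher and 6 lower with oxymatrine, with medians of 0; quantile normalisation gave 8 and 8, and 9 and 7, and centring 11 and 5, and 5 and 11. The subunit gene Rel was at 16.45, 16.56 and 16.51, Rela at 15.33, 15.51 and 15.69, and the inhibitor gene Nfkbib at 15.45, 15.45 and 15.48. These genes were chosen by brightness. Differences from control in the whole NF-kB list ran from -0.25 to 0.18 with astragaloside IV and from -0.73 to 0.37 with oxymatrine. Tnip1, which encodes a partner of the deubiquitinating protein A20 that restrains TNF receptor signalling, was the single gene of these lists past 1.5-fold. It was at 12.62 in control cells, 12.63 after astragaloside IV and 11.88 after oxymatrine, so the oxymatrine array alone was low, by a difference of -0.73 from control. Over all genes above background, 3.31% were 1.5-fold apart between oxymatrine and control. Lists of this size would hold few such genes in any case.

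Of 8 death pathway genes measured, 4 were higher and 3 lower with astragaloside IV, and 5 higher and 2 lower with oxymatrine, with medians of 0.03 in both; with oxymatrine the split was 7 and 1 after quantile normalisation and 4 and 4 after centring. In the order control, astragaloside IV, oxymatrine, Mcl1, a survival protein gene, was at 15.40, 15.46 and 15.48, the caspase inhibitor gene Xiap at 10.82, 11.14 and 10.96, and Mlkl, the executor of necroptosis, at 10.79, 10.79 and 10.80. These genes were chosen by brightness. Differences from control in the whole death list ran from -0.34 to 0.41 with astragaloside IV and from -0.34 to 0.49 with oxymatrine. With each compound Bid gave the lower end and Ripk3 the upper end. Ripk3 was at 9.92 in control cells, 10.33 after astragaloside IV and 10.41 after oxymatrine. The 4 genes for proteases and a cofactor that process ligands and receptors were all above background. Adam17, the protease that sheds TNF, was at 12.34, 12.33 and 12.20, Adam10 at 11.92, 11.87 and 11.54, and Rhbdf2, which is needed for ADAM17 maturation, at 11.02, 11.01 and 10.64. For these 3 genes the oxymatrine array was the lowest, by differences from control of -0.14, -0.38 and -0.38, and the astragaloside IV array lay within 0.05 of control; the convertase gene Furin was equal to control with oxymatrine.

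**Figure D4:**
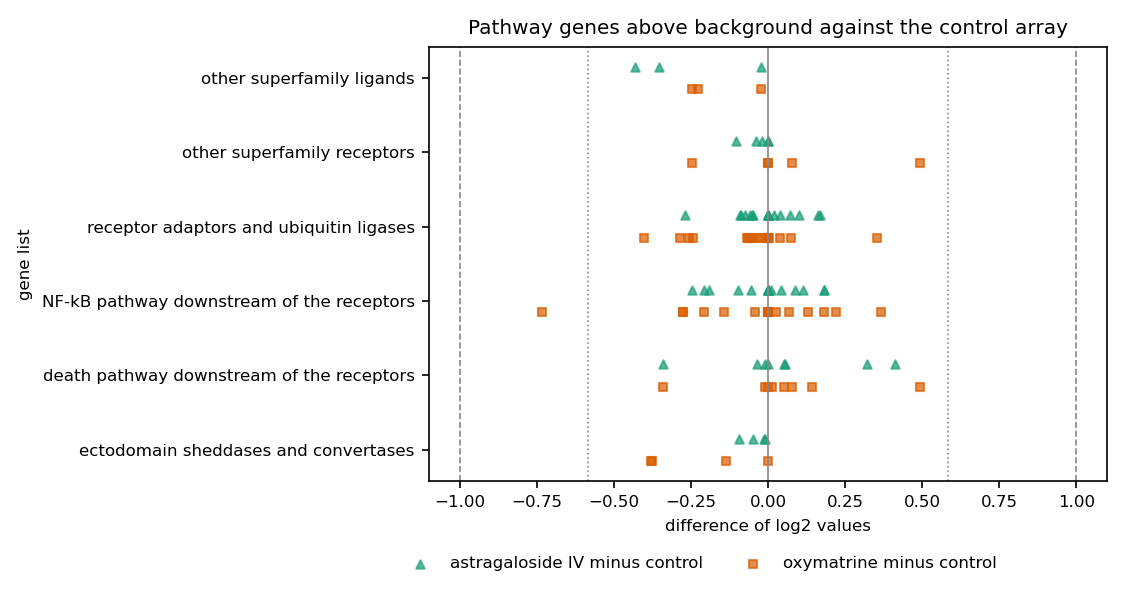
Difference of log2 values from the control array (x axis) for genes above background in 6 lists (y axis): superfamily ligands and receptors under other symbols, adaptors, NF-kB, death pathway, and sheddases with convertases. Triangles are astragaloside IV and squares oxymatrine, 1 array each; dotted lines mark 1.5-fold and dashed lines 2-fold, and Tnip1 at -0.73 with oxymatrine is the point outside the dotted lines.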

How the data were processed

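Total RNA of 3 samples, 1 array per group, was labelled with a whole-transcript biotin kit, per the labels' protocols. The authors deposited log2 expression values per probe set made with RMA, per the submitters' processing notes; its software and version: not given in the sources used here. That the scale is log2 was read from the range of 1.78 to 19.7. The upper end lies above what plain RMA of usual scanner intensities gives, so a further scaling step may have been used, its variant is unknown here, and a fold is a fold on the deposited scale. RMA usually equalises arrays by quantiles and fits probe sets by median polish, which can yield exactly equal values.

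Genes were named through the platform annotation, and probe sets annotated to several genes were left out. For 55 genes with several probe sets the brightest was used. All 29 members matched RefSeq by Entrez identifier. Differences are of deposited values, with no test, since each group holds 1 array; no read depth exists, and the number of arrays limits precision. Genes of similar level are those in the same of 20 equal bins of mean level. Every member was to be named, with its levels where above background; of each of the 6 pathway lists, the 3 genes highest in mean level, a choice by brightness that ranks no genes, and any above background past 1.5-fold. The members and lists were chosen with earlier results of these data known. Alternatives were 2 other background percentiles, each array against its own background, no level filter, centring, quantile normalisation, the mean over probe sets, the mean of the members and 1.5-fold. The calculation was tested on simulated data. Python 3.11.15, numpy 2.4.6, pandas 2.3.3 and matplotlib 3.10.9 were used.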

Additional observations from a re-analysis of the deposited data

How the results depend on the processing

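The count of members above background was 22 and ranged from 19, with the 99th percentile of the silent receptor genes as background, to 23, with the 90th; it was 21 when each array had to reach its own background. The 99th percentile left out Tnfrsf8, Tnfrsf19 and Tnfrsf25, which changes the DR3 and CD30 groups. In each pair of arrays 0 members were 2-fold apart under every level filter, centring, quantile normalisation and averaging of probe sets; at 1.5-fold in place of 2-fold the count between the treated arrays was 1. Chosen after seeing the data, the 1.5-fold count was also run under those alternatives, and higher and lower splits under both scalings: the count between the treated arrays was 1 in each. With astragaloside IV against control it was 0 except for 1 after quantile normalisation (Tnfrsf22, -0.61) and 1 with no level filter (Tnfrsf21, -0.60). With oxymatrine it was 0 except for 1 with the 90th percentile and 1 with no level filter (Tnfrsf11b, 0.67, in both). Median differences stayed within 0.05 of 0, from -0.03 for oxymatrine minus control after centring to 0.05 for the mean of astragaloside IV minus oxymatrine. The sign of single members changed for Tnfrsf25 with oxymatrine, which was 0.03 and became -0.001 after centring and -0.04 after quantile normalisation, Tnfsf14 with astragaloside IV, and Tnfrsf26 between the treated arrays, where -0.01 became 0.02 after centring. No paired analysis was possible because each group holds 1 array. Without replicates, array-to-array error is unknown, and values near background carry the least weight.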

Other observations

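Several members are neighbours among protein-coding genes in the RefSeq gene order of GRCm38.p6, and neighbours were not always detected together. Tnfsf4, at 11.24 in control, lies next to Tnfsf18, at 2.65, and Tnfsf15, at 10.10, lies next to Tnfsf8, at 4.82; in each of these ligand pairs 1 gene was above background and the other was not. In the 4 adjacent receptor pairs, Tnfrsf1b with Tnfrsf8, Tnfrsf4 with Tnfrsf18, Tnfrsf26 with Tnfrsf22 and Tnfrsf22 with Tnfrsf23, both genes were above background. The last pairs share Tnfrsf22, and Tnfrsf8 was dim, with a mean of 5.81. Over all members, 17 of 20 receptors and 5 of 9 ligands were above background. Receptor pairs would thus often pass together in any case. Adjacent pairs among all genes were not counted, and whether position bears on detection was not tested.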
